A study of Mus musculus with 12 samples.

Results

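The genotype difference of cultured lymph node dendritic cells before any stimulus is described from 4 of the 12 expression arrays of the series, those sampled at 0 h. They were chosen by their titles: 2 arrays labelled as p38a-knockout (KO, replicates A and B) and 2 labelled as wild type (WT, replicates A and B). All cells came from C57BL/6 mice and were kept at 37 °C, and the 0 h cells are described as not activated through TLR2. The other 8 arrays, 2 of each genotype label at 2 and 4 h of the TLR2 ligand Pam3CSK4, a synthetic lipopeptide, share the normalization and the estimate of spread with those at 0 h, and give values of their own where a difference at 0 h is followed over time. How the knockout was made, in which cells the gene was deleted, and whether arrays A and B came from separate animals or cultures are not given in the sources used here, so p-values measure the spread between these arrays, which may be technical.

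Dendritic cells take up antigen in tissues, carry it to lymph nodes and prime T cells there with peptide on MHC molecules, co-stimulatory ligands and cytokines. The kinase p38α, encoded by Mapk14, is activated by stress and by microbial ligands; it acts on transcription factors of the AP-1 and CREB families and, through the kinase MK2, on the stability of cytokine messenger RNAs. The phosphatase DUSP1 switches p38 off and is itself induced by p38 signalling. The comparison addresses which transcripts differ between the genotypes in cells that have not received the ligand.

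The targeted gene did not separate the labels. Mapk14 had 6 probe sets, of which 3 were above the filter on low signals and 0 were lower in KO. On the probe set that stood for the gene, the level, log2(signal + 16) as for all levels given here, was 8.37 on both KO arrays and 8.41 and 8.02 on the WT arrays, in the order A and B that is kept for all values that follow. The difference KO minus WT was 0.15 ± 0.13 (standard error, as after all differences; adjusted p = 0.686), and the arrays did not fall into the labelled groups. Which part of the gene was deleted is not given here, and a probe set outside that part would check nothing, so the groups are called the arrays labelled KO and WT, or KO and WT for short. Of the 40 tested genes that lie nearest to Mapk14 in gene order, 20 on each side on chromosome 17, 0 were higher and 1 was lower, Pim1, a survival kinase gene, with 10.25 and 10.22 against 10.50 and 10.52. The call of Pim1 was lost in each of the 4 fits that left out 1 array (adjusted p up to 0.118). Of 634 tested genes on chromosome 17, 24 were called (3.79%), beside 3.3% of all 12791 genes tested.

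The tissue label was held against marker genes. Fscn1, which encodes the actin bundler fascin of mature dendritic cells, read 13.31 and 13.31 in KO and 13.39 and 13.47 in WT, and Ccr7, the receptor that guides dendritic cells to lymph nodes, read 12.83 and 12.88 against 12.95 and 12.95. The MHC class II chain gene H2-Aa read between 12.55 and 12.96 and Flt3, the receptor for the dendritic cell growth factor, between 10.06 and 10.48. Cd207, the Langerhans cell lectin gene, was at 5.10 to 5.38, near the filter level of 4.73. Transcripts of salivary gland were also present on all 4 arrays: Amy1 (salivary amylase) read 13.11 to 13.23 and Bpifa2 (parotid secretory protein) 12.97 to 13.21. Krt8, a keratin gene of simple epithelia, read 11.66 to 11.83. Genes known from gland cells were thus measured beside those of dendritic cells on every array at 0 h. Of 5 erythroid markers with a probe set of their own, 0 passed the filter.

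Signals differed in scale between the deposited arrays. The 2% trimmed means at 0 h were 119 and 75.5 in KO and 111 and 102 in WT, so KO replicate B had the lowest, and the highest to the lowest differed 1.58-fold. After quantile normalization the arrays correlated over genes at r = 0.990 within KO and 0.990 within WT and at 0.984 to 0.989 between the labels, a description across genes that share probes and processing. The number of arrays, 2 a group, limits the precision.

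At 0 h, 249 of 12791 genes were higher in KO (1.95%) and 173 were lower (1.35%) at an adjusted p under 0.05, 422 in all (3.3%). At least 2-fold, 18 were higher and 5 lower. Both KO arrays lay above both WT arrays in 27.5% of all genes and below them in 15.5%, so separation of the arrays alone marks many genes, and the median difference over all genes was 0.04. All 422 called genes had arrays that did not overlap between the labels. On the deposited scale 10 genes were higher and 21 lower, of which 25 were among the 422, and the median of all genes was -0.09 in place of 0.04. Of the 422, 117 stayed called without each of the 4 arrays in turn, 67 of them higher and 50 lower. Where a call of a named gene is said below to be lost, it is in these 4 fits, each without 1 array.

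**Figure D1:**
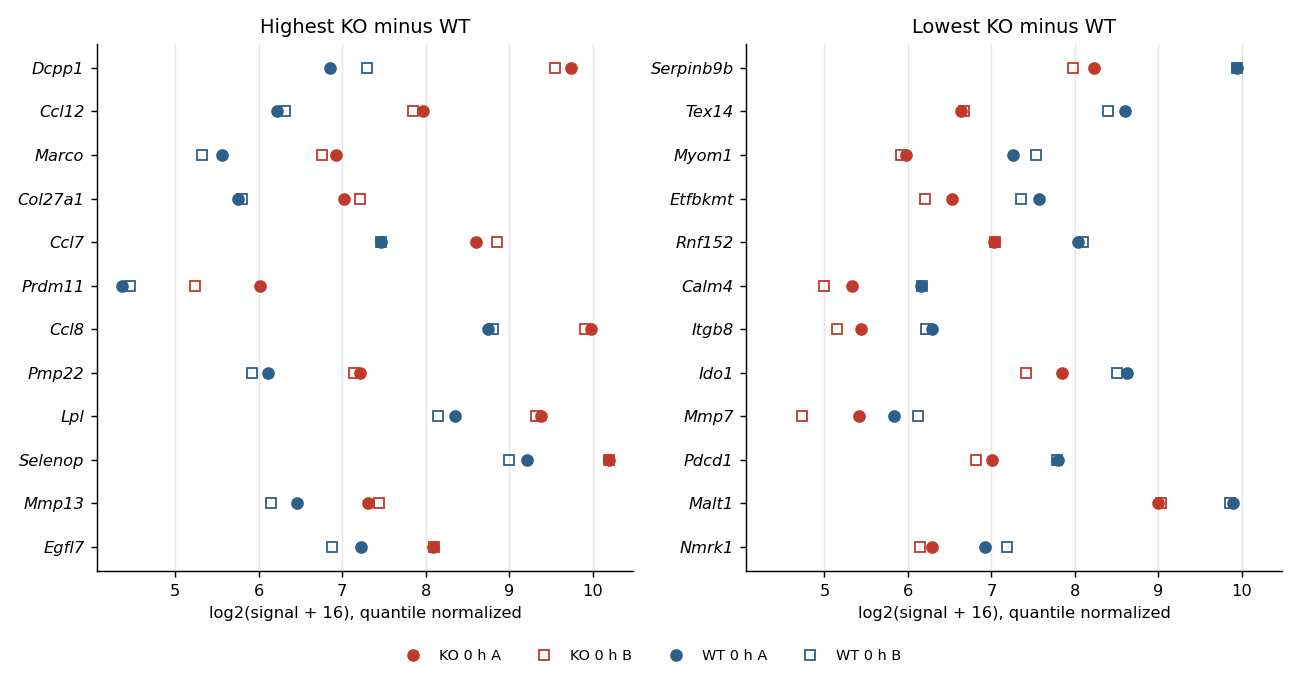
Levels of the 12 genes with the highest and the 12 with the lowest called difference at 0 h, as log2(signal + 16) after quantile normalization. Each point is 1 array (red KO, blue WT; filled circles replicate A, open squares replicate B), and the KO and WT points do not overlap for any of the 24 genes, by the rule that chose them.

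Chemokines that attract monocytes were higher in KO. Of 26 chemokine genes tested, 9 were higher and 0 lower, against 1.95% higher over all genes, and the list's median difference was 0.16. Ccl12, a ligand of CCR2 in mice, read 7.97 and 7.85 in KO and 6.22 and 6.32 in WT. Its difference was 1.64 ± 0.19, a 3.11-fold higher level (adjusted p = 0.000172), and both KO arrays lay well above both WT arrays. The neighbouring chemokine genes Ccl7, Ccl2 and Ccl8 gave the same picture. Ccl7 read 8.61 and 8.86 against 7.47 and 7.47 (1.27 ± 0.11, adjusted p = 1.61e-05). Ccl2, which encodes the main monocyte attractant MCP-1, read 10.35 and 10.46 against 9.47 and 9.34 (1.00 ± 0.10, adjusted p = 2.78e-05). Ccl8 read 9.98 and 9.91 against 8.74 and 8.81 (1.17 ± 0.10, adjusted p = 8.2e-06). These genes lie close together and have related sequences, so some of a probe set's signal could come from a related transcript, which was not tested.

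Other chemokine genes followed. Cxcl9, a ligand of CXCR3 on T cells, read 10.24 and 10.32 against 9.44 and 9.10 (1.01 ± 0.12, adjusted p = 0.000178). Ccl6 and Ccl9, chemokine genes of myeloid cells, differed by 1.04 ± 0.12 and 0.78 ± 0.10. Ccl5 read 12.82 and 12.83 against 12.84 and 12.90, and Ccl22, a ligand of CCR4 made by migratory dendritic cells, 11.85 and 11.67 against 11.81 and 11.67; neither passed the test. Among 15 chemokine receptor genes 0 were higher and 1 was lower, beside 1.95% and 1.35% over all genes. The lower gene, Cxcr4, the receptor for CXCL12, read 9.25 and 9.27 in KO and 10.14 and 10.002 in WT (-0.81 ± 0.09, adjusted p = 0.000141). Ccr2, which encodes the receptor of CCL12, read 5.72 and 5.94 against 5.91 and 6.11, and the labels overlapped. On the deposited scale 3 chemokine genes were called, all higher: Ccl7, Ccl8 and Ccl12.

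Macrophage transcripts differed in the same direction. Of 15 tested markers of macrophages and monocytes, 10 were higher and 0 lower, beside 1.95% higher and 1.35% lower over all genes. The median was 0.47. Lyz2, lysozyme of myeloid cells, read 11.12 and 11.11 against 10.10 and 10.22 (0.96 ± 0.08, adjusted p = 1.11e-05), and its near-identical paralog Lyz1 may share that signal. Adgre1, which encodes the macrophage antigen F4/80, read 7.01 and 6.96 against 6.12 and 6.10 (0.87 ± 0.14, adjusted p = 0.00197). C1qa, a chain of the first complement component, read 9.004 and 8.82 against 8.09 and 7.79 (0.97 ± 0.12, adjusted p = 0.000178). For each of these genes the KO arrays were the higher pair. C1qb and C1qc, the partner chains, differed by 0.54 ± 0.11 and 0.80 ± 0.14, Csf1r, the receptor for macrophage colony-stimulating factor, by 0.43 ± 0.09, and Cd68, a lysosomal glycoprotein gene, by 0.47 ± 0.10. Not all markers moved: Cd14, the lipopolysaccharide co-receptor gene, read 7.18 and 7.12 against 7.13 and 7.23, and Mertk, a receptor for dying cells, differed by 0.41 ± 0.16 (adjusted p = 0.245). Cd163, a scavenger receptor of resident macrophages, was below the filter. Other probe sets of Csf1r differed by 0.35 and -0.11, and neither was called in a fit of all probe sets above the filter. The summed signal of the 15 markers was 6697 to 6848 in KO and 4156 to 4300 in WT, and Lyz2 gave a large part of it. In bulk RNA a different number of cells of a type and a different amount of RNA per cell cannot be told apart. Without KO replicate A, KO replicate B or WT replicate B the list had 6 higher genes, without WT replicate A 7, and on the deposited scale 0. The calls of Csf1r and Cd68 were lost in 4 and 3 of the fits without 1 array and that of C1qb in 2.

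**Figure D2:**
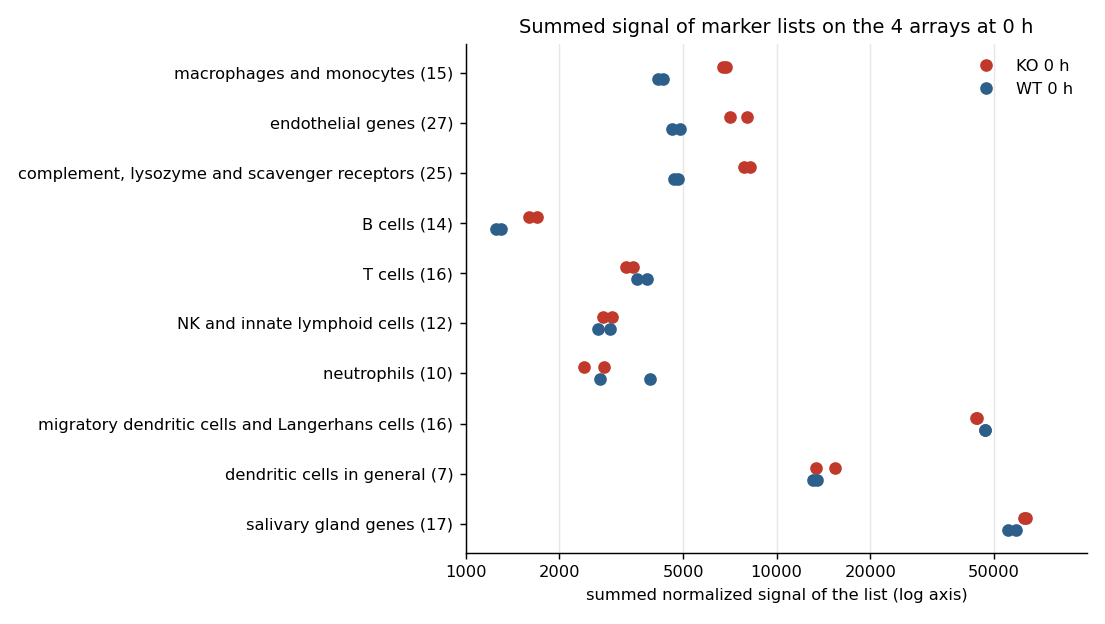
Summed normalized signal of 10 gene lists on each of the 4 arrays at 0 h (log axis; number of tested genes in brackets; red KO, blue WT). The macrophage list spans 6697 to 6848 in KO and 4156 to 4300 in WT, while the list of migratory dendritic cells spans 43800 to 43990 and 46660 to 46980. Lyz2 is in both the macrophage list and the complement, lysozyme and scavenger receptor list.

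Scavenging and lipid-handling genes that macrophages share with dendritic cells were among the differences. Lyz2 of the scavenger list, Apoe of the lipid list and Cd68 of the lysosome list are also among the macrophage markers above. The counts of these lists are therefore not separate from that of the macrophage list. The 25 complement, lysozyme and scavenger receptor genes had a summed signal of 7847 to 8197 in KO and 4666 to 4811 in WT. Much of it came from Lyz1 (11.53 and 11.43 against 10.57 and 10.65) and Lyz2, near-identical genes that may share signal. Of the 25, 8 were higher and 0 lower (median 0.41), beside 1.95% higher and 1.35% lower over all genes. The count was 5 without WT replicate A and 1 on the deposited scale. Marco, a scavenger receptor for bacteria, read 6.92 and 6.76 against 5.57 and 5.32 (1.40 ± 0.15, adjusted p = 6.06e-05). Of 20 genes of lipid handling 3 were higher and 0 lower: Lpl, lipoprotein lipase, read 9.39 and 9.33 against 8.35 and 8.15 (1.11 ± 0.11, adjusted p = 4.81e-05), and Apoe and Fabp4 differed by 0.81 ± 0.11 and 0.67 ± 0.12. A second probe set of Fabp4 differed by -0.11 and was not called in the fit of 27003 probe sets, which called 449 (1.66%). Selenop, which encodes the secreted selenium carrier, read 10.20 and 10.19 against 9.22 and 9.001 (1.08 ± 0.11). Of 32 lysosome and autophagy genes 5 were higher and 0 lower, among them the cathepsin genes Ctsb (0.40 ± 0.07) and Ctsd (0.42 ± 0.08), and this count was 0 without KO replicate A or without WT replicate B, 2 without KO replicate B and 0 on the deposited scale.

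Some genes of vessel lining were higher on the KO arrays. Of 16 stromal and endothelial markers 2 were higher and 0 lower, with 5 differences negative. The higher ones were Pdpn (podoplanin; 8.78 and 8.86 against 8.12 and 7.88) and Cdh5 (vascular cadherin; 7.90 and 7.93 against 7.56 and 7.26), whose call was lost in 3 of 4 fits without 1 array. Egfl7, a secreted factor of endothelial cells, read 8.09 and 8.10 against 7.22 and 6.88 (1.04 ± 0.18, adjusted p = 0.00392), and its call was lost without WT replicate B. A wider list of 27 tested endothelial genes was written after values had been seen and carries no test. Its counts and shares only describe the genes picked. All 27 differences were positive, beside 58.3% of all genes, and 11 were called higher, beside 1.95%. The median was 0.46, beside 0.04 over all genes. Glycam1, a mucin of the high endothelial venules through which lymphocytes enter lymph nodes, read 10.37 and 10.78 against 9.49 and 9.70, and Ackr1, the venular chemokine receptor, 8.39 and 8.81 against 7.71 and 7.49. The summed signal of the 27 genes was 7076 to 8011 in KO and 4589 to 4891 in WT, moving with the chemokine and macrophage genes above; its part in those results was not tested. Without WT replicate B 5 of the 27 were called, without KO replicate B 6, and on the deposited scale 0.

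The gene with the largest difference among those named was Dcpp1, which encodes a demilune cell and parotid protein of salivary gland. It read 9.74 and 9.55 in KO and 6.85 and 7.30 in WT, 2.57 ± 0.27 or 5.94-fold higher (adjusted p = 6.06e-05). Its close relative Dcpp3 read 8.18 and 8.28 against 7.21 and 7.89 (0.68 ± 0.18, adjusted p = 0.053), and probe sets of such near-identical genes may share signal. Of 17 salivary gland genes 3 were higher, Dcpp1, Egf (0.57 ± 0.12) and Pip (0.32 ± 0.07), and 0 lower, beside 1.95% and 1.35% over all genes. The list, which holds Dcpp1 itself, was also written after values had been seen, so its count carries no test. The calls of Pip and Egf were lost in 4 and 2 of the 4 fits without 1 array. The summed signal of that list was 62470 to 63330 in KO and 55660 to 58830 in WT, a smaller relative gap than for Dcpp1 itself. Dcpp1 lies on chromosome 17 as does Mapk14, with 116 tested genes between them.

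Lists of dendritic cell markers held from 1 to 3 higher genes each and 0 lower ones, beside 1.95% higher and 1.35% lower over all genes. Of 7 general dendritic cell markers 2 were higher, Itgax and H2-Ab1, with a median of 0.19. Of 16 Langerhans cell and migratory dendritic cell markers 1 was higher (Nudt17) and 0 lower, with a median of -0.09, and their summed signal was 43800 to 43990 in KO and 46660 to 46980 in WT. Among 11 cDC1 markers 1 was higher, Batf3, a transcription factor needed for cross-presenting dendritic cells, at 9.92 and 9.86 against 9.34 and 9.30 (0.57 ± 0.08, adjusted p = 0.000588). Of 10 cDC2 markers 3 were higher: Sirpa, an inhibitory receptor gene (0.53 ± 0.09), Irf4 (0.39 ± 0.10) and Esam (0.69 ± 0.15), the last an endothelial gene too. The call of Irf4 was lost in 4 of 4 fits without 1 array, those of Esam and Nudt17 in 3, and the cDC2 count was 1 without KO A or WT B and 0 on the deposited scale. Of 36 lineage transcription factor and cytokine receptor genes 4 were higher and 2 lower. The lower ones were Csf2rb, a chain of the GM-CSF receptor (12.59 and 12.51 against 12.87 and 12.84), and Stat3, with a difference of -0.59. That list had 2 higher genes without each array in turn and 0 lower without WT A or WT B; the Csf2rb call was lost in 3 of 4 fits. Of 11 plasmacytoid dendritic cell markers 2 were higher, Spib (0.59 ± 0.08) and Cox6a2 (0.79 ± 0.11).

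Antigen presentation showed a difference for MHC class II and none called for class I. Of 13 class II genes 4 were higher and 0 lower, beside 1.95% higher and 1.35% lower over all genes, with a median of 0.34. H2-Ab1 read 11.02 and 11.05 against 10.61 and 10.44 (0.51 ± 0.10, adjusted p = 0.00717), and H2-DMa, which helps to load peptide, 8.39 and 8.38 against 7.95 and 7.81 (0.50 ± 0.10). Their calls were lost in 2 and 3 of the 4 fits without 1 array. H2-Aa overlapped between the labels, and Ciita, the class II transactivator gene, read 5.85 and 5.99 against 5.82 and 6.06. Of 18 class I genes 0 were called in either direction by limma, and the median was -0.02. An unadjusted p under 0.05 was reached by 3 of them and by 14.5% of all genes. The class II count was 1 without KO replicate A, 1 without KO replicate B, 2 without WT replicate B and 0 on the deposited scale. Of 27 co-stimulation and maturation genes 5 were higher and 0 lower. Cd70, the ligand of CD27 on T cells, read 8.37 and 7.86 against 7.04 and 7.20 (1.00 ± 0.12, adjusted p = 0.000214), and Tnfsf9, which encodes 4-1BB ligand, 7.43 and 7.35 against 6.85 and 6.69 (0.62 ± 0.09). Cd48, Tnfrsf4 and Icam1 differed by 0.51 ± 0.09, 0.40 ± 0.07 and 0.26 ± 0.07, and the call of Icam1 was lost in 4 of 4 fits without 1 array. The co-stimulation count was 2 higher without WT B, 5 higher and 2 lower without WT A, and 0 on the deposited scale.

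Among 19 T helper-polarising cytokine genes 2 were higher and 2 lower, beside 1.95% higher and 1.35% lower over all genes. Ebi3, the shared chain of IL-27 and IL-35, read 7.69 and 7.74 against 7.08 and 7.06 (0.65 ± 0.07, adjusted p = 4.81e-05). Il33, an alarmin gene, differed by 0.52 ± 0.11. Il1b, the inflammasome-processed cytokine, was lower at 10.64 and 10.54 against 11.07 and 11.01 (-0.46 ± 0.08, adjusted p = 0.00539). Il17a read 5.38 and 5.73 against 6.26 and 6.27 (-0.71 ± 0.15, adjusted p = 0.0166); it is known as a product of lymphocytes, and the T cell list had 0 higher and 1 lower gene of 16, Il7r. The summed T cell signal was 3272 to 3443 in KO and 3542 to 3813 in WT. Much of it came from Il7r alone (10.71 and 10.67 against 11.07 and 10.91), so the sum does not describe the list as a whole. Of the 16 T cell differences, however, 13 were positive and 3 negative (median 0.08), where 58.3% of all genes were positive. The Il17a call was lost in 3 of the 4 fits that left out 1 array, with adjusted p up to 0.171, as were those of Il33 and Il7r, and that of Il1b was lost in 1. The cytokine list had 1 higher and 1 lower gene without KO A or WT B, 1 and 3 without WT A, and 0 on the deposited scale.

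Differences among signalling genes went in both directions. Of 39 genes of the p38 and MAPK pathway 0 were higher and 1 was lower, Dusp1, at 10.76 and 10.85 against 11.37 and 11.21 (-0.48 ± 0.07, adjusted p = 0.000588). Of 36 AP-1, CREB and immediate-early genes, Batf3, Egr2 (0.70 ± 0.15) and Maff (0.50 ± 0.11) were higher and Fosl2 (-0.38 ± 0.10) was lower. The calls of Maff and Fosl2 were lost in 4 of 4 fits without 1 array and that of Egr2 in 3. On the deposited scale the list had 0 higher and 0 lower genes. Of 30 genes of NF-kB subunits and early targets, 2 were higher and 4 lower. Malt1, the paracaspase that passes antigen receptor signals to NF-kB, read 8.99 and 9.04 against 9.89 and 9.86 (-0.86 ± 0.09, adjusted p = 4.58e-05). The inhibitor of apoptosis gene Birc2 (-0.49 ± 0.07) and the subunit genes Nfkb2 (-0.46 ± 0.09) and Rel (-0.43 ± 0.08) were the other lower members, and Icam1 and Nfkbie the higher ones. The higher count was 0 without KO A, KO B or WT B, 1 without WT A and 0 with trimmed-mean scaling. The lower count was 2 without WT A, 3 without KO B and 1 on the deposited scale. The calls of Nfkb2 and Rel were each lost in 2 of the 4 fits. Over all genes 3.3% were called, beside 6 of 30 here, 4 of 36 AP-1 and CREB genes and 1 of 39 MAPK genes.

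The lowest differences belonged to genes of different roles. Serpinb9b, a serpin gene of the granzyme B inhibitor family, read 8.23 and 7.98 in KO and 9.95 and 9.95 in WT. The difference was -1.84 ± 0.09, a 3.59-fold lower level (adjusted p = 1.86e-08), and serpins of this family have close relatives whose transcripts could share its probes. Tex14, known from germ cell bridges, read 6.64 and 6.67 against 8.60 and 8.39 (-1.84 ± 0.12, adjusted p = 8.16e-07). Myom1, a muscle M-band gene, read 5.97 and 5.92 against 7.26 and 7.53 (-1.45 ± 0.19, adjusted p = 0.000459). For all of these genes both KO arrays lay below both WT arrays. Ido1, the tryptophan-degrading enzyme of tolerogenic dendritic cells, read 7.84 and 7.41 against 8.63 and 8.51 (-0.94 ± 0.13, adjusted p = 0.000488). Aldh1a2, which makes retinoic acid, read 6.01 and 6.21 against 6.96 and 6.81 (-0.78 ± 0.16, adjusted p = 0.0145). Itgb8, the integrin chain that activates TGF-beta, read 5.44 and 5.15 against 6.29 and 6.21 (-0.96 ± 0.18, adjusted p = 0.00678). Aldh1a2 and Itgb8 were the 2 lower genes of 31 in the list of TGF-beta and retinoic acid. The 4 higher ones were Tgfbr3, Tgfbi, Id1 and Id3, where 1.95% of all genes were higher and 1.35% lower. The higher count was 0 without KO B or WT B and 2 without KO A or WT A, and 0 on the deposited scale. The Aldh1a2 call was lost in 3 of 4 fits without 1 array (adjusted p up to 0.128) and that of Itgb8 in 1 (0.0881). Pdcd1, which encodes the inhibitory receptor PD-1, differed by -0.88 ± 0.15. Prdm11 among the highest genes (1.22 ± 0.30) and Calm4 (-0.999 ± 0.24) and Mmp7 (-0.91 ± 0.23) among the lowest lost their calls in at least 3 of these 4 fits.

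**Figure D3:**
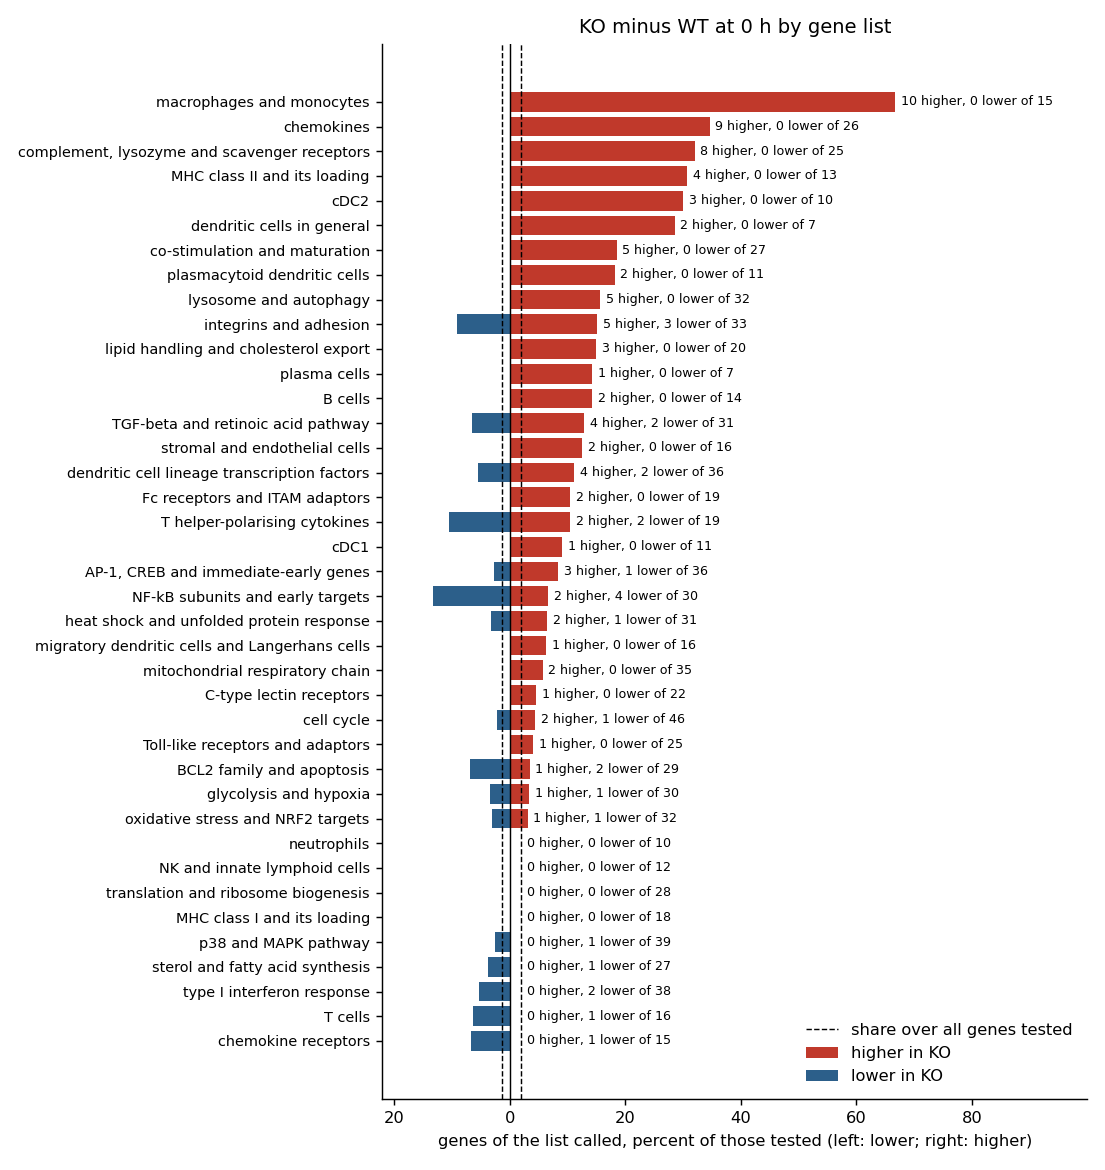
Genes called higher (red, right) and lower (blue, left) in KO at 0 h as a percent of the genes tested in each list, with the counts beside the bars. Dashed lines mark the shares over all genes, 1.95% higher and 1.35% lower; the macrophage list has 10 of 15 higher and the chemokine list 9 of 26.

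In metabolism and growth, single genes passed the test, where 3.3% of all genes were called, 1.95% higher and 1.35% lower. Ccnd1, cyclin D1 of the G1 phase, read 9.18 and 9.01 against 8.11 and 8.14 (0.97 ± 0.09, adjusted p = 2.78e-05), and of 46 cell cycle genes 2 were higher and 1 lower, which became 1 and 0 without each array in turn. Slc7a11, the cystine importer gene, was lower (-0.64 ± 0.09) and Hmox1, the heme-degrading enzyme gene, higher (0.44 ± 0.10) among 32 oxidative stress genes, the latter lost in 3 of 4 fits without 1 array. Of 27 sterol and fatty acid synthesis genes 0 were higher and 1 lower, Idi1 (-0.44 ± 0.07). Oasl1 and Oasl2 were the 2 lower genes of 38 of the type I interferon response, and 0 were higher. Both calls were lost in 3 of 4 fits without 1 array (adjusted p up to 0.137 and 0.195). Of 28 translation and ribosome biogenesis genes, 0 were called by limma in either direction, 8 had an unadjusted p under 0.05, and the median was 0.11. Neutrophil markers (10 tested) and NK and innate lymphoid markers (12 tested) had 0 calls by limma and 1 gene each at an unadjusted p under 0.05, a level that 14.5% of all genes passed. Of 14 B cell markers 2 were higher, Bank1 and Blnk, and 0 lower. The B cell list had 13 positive differences, a median of 0.235 and a summed signal of 1601 to 1700 in KO and 1254 to 1296 in WT. Neither Bank1 nor Blnk was called on the deposited scale or in a fit of only the 4 arrays at 0 h.

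Promoters of called genes were read for short motifs that the factors downstream of p38 or of myeloid identity are known to bind. RefSeq promoter windows (GRCm38.p6; 250 bases before to 50 after a gene's start, 300 in all) were matched by symbol for 185 of 249 higher genes, 139 of 173 lower genes and 10323 of 12791 tested genes. The AP-1 motif TGANTCA was found on either strand in a window of 36 of the 185 higher genes (19.5%), 7 of the 139 lower genes (5.04%) and 6.82% of tested genes. The cAMP response element half-site TGACGT was in 7.57% of higher genes, 18.7% of lower genes and 12.7% of tested genes. The PU.1 motif GAGGAA was in 38.9%, 30.9% and 30.7%. Over all windows in the table, 7.81% held the AP-1 motif, 7.51% the half-site and 28.3% the PU.1 motif. A match is a string of letters in a window and not a measured binding site. The windows below belong to 4 higher genes with an AP-1 match, to Ccl12, the most raised chemokine gene, whose window held 1 PU.1 match and 0 AP-1 matches, and to Dusp1, the lower gene of the p38 list. Capitals mark AP-1 matches in Cd68, Itgax, Ccl9 and Mmp13, the PU.1 match in Ccl12 and the half-site matches in Dusp1. Each is written 5′ to 3′ on the gene's strand.
Cd68, chr11:69666121-69666420, minus strand: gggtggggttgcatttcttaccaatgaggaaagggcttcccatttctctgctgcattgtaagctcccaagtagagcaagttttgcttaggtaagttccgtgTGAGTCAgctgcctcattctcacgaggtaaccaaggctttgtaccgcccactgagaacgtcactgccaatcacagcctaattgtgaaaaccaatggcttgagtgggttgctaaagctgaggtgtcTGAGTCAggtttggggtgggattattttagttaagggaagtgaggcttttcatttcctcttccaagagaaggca
Itgax, chr7:128129300-128129599, plus strand: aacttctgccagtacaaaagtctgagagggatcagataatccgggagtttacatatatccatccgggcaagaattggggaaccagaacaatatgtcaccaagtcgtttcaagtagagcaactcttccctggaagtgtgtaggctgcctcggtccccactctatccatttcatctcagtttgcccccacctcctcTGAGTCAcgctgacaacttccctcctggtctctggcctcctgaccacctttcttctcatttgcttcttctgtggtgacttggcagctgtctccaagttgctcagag
Ccl9, chr11:83578587-83578886, minus strand: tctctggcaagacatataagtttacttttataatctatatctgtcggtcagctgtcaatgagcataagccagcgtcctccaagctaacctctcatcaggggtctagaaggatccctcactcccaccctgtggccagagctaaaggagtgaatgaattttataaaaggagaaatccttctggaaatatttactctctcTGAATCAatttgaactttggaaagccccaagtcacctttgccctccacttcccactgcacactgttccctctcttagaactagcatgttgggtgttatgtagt
Mmp13, chr9:7272264-7272563, plus strand: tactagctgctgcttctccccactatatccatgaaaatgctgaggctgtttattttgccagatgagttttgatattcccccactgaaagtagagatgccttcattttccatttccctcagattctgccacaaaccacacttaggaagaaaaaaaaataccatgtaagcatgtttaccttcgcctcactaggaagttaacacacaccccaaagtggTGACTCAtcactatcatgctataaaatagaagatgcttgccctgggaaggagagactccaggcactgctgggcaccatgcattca
Ccl12, chr11:82101595-82101894, plus strand: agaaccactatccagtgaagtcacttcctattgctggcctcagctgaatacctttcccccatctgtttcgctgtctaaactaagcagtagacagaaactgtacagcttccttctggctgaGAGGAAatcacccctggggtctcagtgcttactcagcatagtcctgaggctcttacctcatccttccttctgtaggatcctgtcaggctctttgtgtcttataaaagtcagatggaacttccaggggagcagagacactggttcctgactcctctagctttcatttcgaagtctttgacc
Dusp1, chr17:26508423-26508722, minus strand: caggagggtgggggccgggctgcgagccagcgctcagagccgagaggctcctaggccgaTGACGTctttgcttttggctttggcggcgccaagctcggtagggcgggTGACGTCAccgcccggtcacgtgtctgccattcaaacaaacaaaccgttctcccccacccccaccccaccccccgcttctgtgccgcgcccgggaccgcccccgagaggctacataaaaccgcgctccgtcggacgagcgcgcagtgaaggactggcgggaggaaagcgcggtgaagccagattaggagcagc

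Cd68 held 2 AP-1 matches and Itgax, which encodes the CD11c integrin chain (7.39 and 7.50 against 6.997 and 6.85; call lost in 3 of 4 fits without 1 array), 1. Mmp13, a collagenase gene, held 1 and read 7.31 and 7.44 in KO against 6.46 and 6.15 in WT (1.06 ± 0.16, adjusted p = 0.00108). Dusp1 held 3 half-site matches, of which the last pair overlap on opposite strands.

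Genotype differences at 0 h were followed on the arrays at 2 and 4 h. Those arrays do not enter the means at 0 h but share the normalization and the estimate of spread, and in a fit of only the 4 arrays at 0 h 131 genes were higher and 98 lower. Of the 249 genes higher at 0 h, 233 had the same sign at 2 h (93.6%) and 230 at 4 h (92.4%), beside 66.2% and 63% of all genes with a positive difference at 0 h. Of the 173 lower genes, 168 (97.1%) and 166 (96%) kept their sign, beside 56.2% and 60.7% of all genes with a negative difference. At 2 h, 72 of the higher genes were again called higher (1.01% of all genes were) and 100 of the lower genes again lower (1.29%), where 2.3% of all genes were called in either direction. At 4 h it was 82 (1.13%) and 89 (1.26%), with 2.39% in either direction. In all, 52 of the higher and 76 of the lower genes were called at all 3 times, and 145 and 60 at 0 h and at neither later time. The median of the higher genes was 0.52 at 0 h, 0.30 at 2 h and 0.28 at 4 h, and that of the lower genes -0.48, -0.43 and -0.39. The genes were chosen by their values at 0 h, so the medians at 0 h are a description. Whether arrays of different times share animals is not given in the sources used here.

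**Figure D4:**
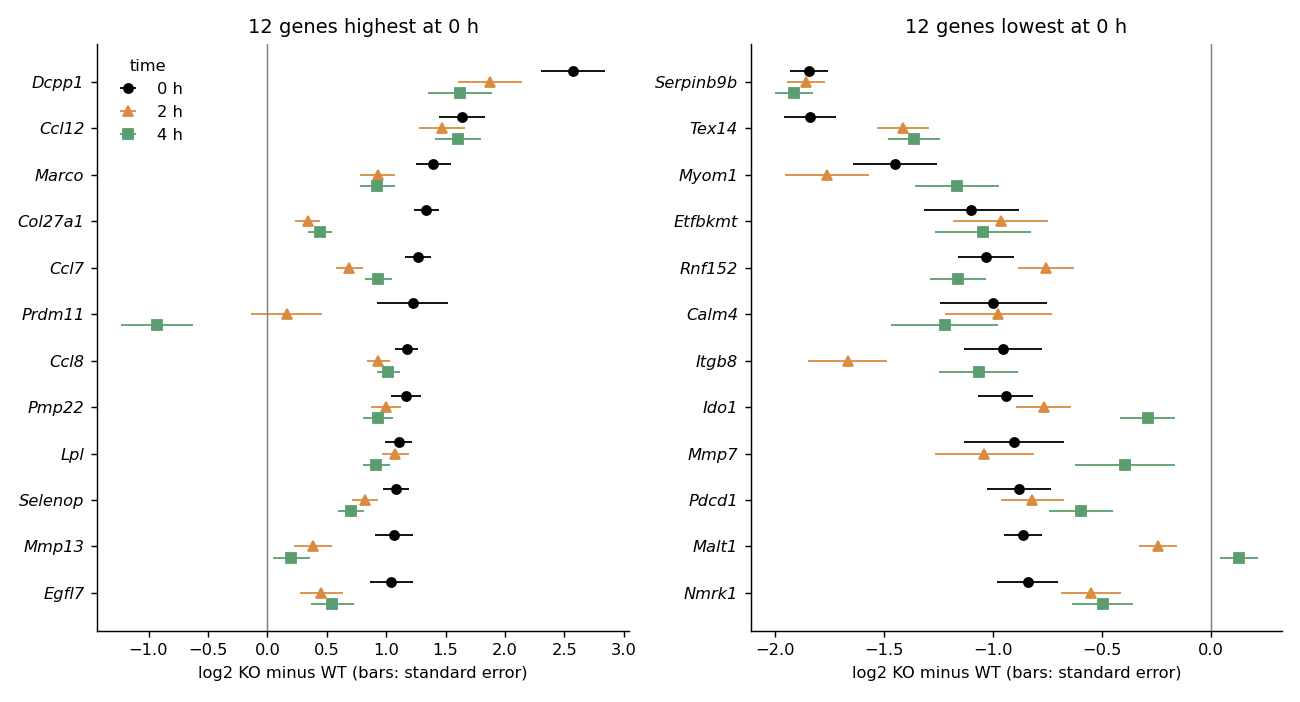
Difference KO minus WT (log2) at 0, 2 and 4 h of Pam3CSK4 for the 12 highest and 12 lowest genes at 0 h, with standard errors. Serpinb9b stays between -1.84 and -1.91, Ccl12 between 1.47 and 1.64, while Malt1 goes from -0.86 at 0 h to 0.13 at 4 h.

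For single genes the later values were as follows. Serpinb9b differed by -1.86 ± 0.09 at 2 h and -1.91 ± 0.09 at 4 h, and Tex14 by -1.41 ± 0.12 and -1.36 ± 0.12. Ccl12 differed by 1.47 ± 0.19 and 1.60 ± 0.19, and Ccl8 by 0.93 ± 0.10 and 1.02 ± 0.10. All of these passed the test at both times. Lyz2 remained higher (0.87 ± 0.08 and 1.03 ± 0.08), as did Ccnd1 (0.96 ± 0.09 and 1.11 ± 0.09). Glycam1 differed by 0.34 ± 0.13 at 2 h and 0.23 ± 0.13 at 4 h, which did not pass. Il1b differed by -0.03 and -0.12 and Nfkb2 by 0.05 and 0.03 at these times, without passing. A change from 0 h is not established for Glycam1, Il1b and Nfkb2. Limma did not call their difference at 0 h against the mean of the later differences (adjusted p = 0.229, 0.417 and 0.193).

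The difference at 0 h was tested against the mean of the differences at 2 and 4 h. It was called in 10 of 12791 genes (0.0782%), 8 with a more positive (0.0625%) and 2 with a more negative difference at 0 h (0.0156%). Ccl6 read 7.03 and 6.98 in KO and 5.97 and 5.96 in WT at 0 h, and differed by -0.30 at 2 h and -0.29 at 4 h. This is a higher level at 0 h alone, with a contrast of 1.34 ± 0.14 (adjusted p = 0.00154). Col27a1, a fibrillar collagen gene, read 7.03 and 7.21 against 5.76 and 5.80, and its difference of 1.34 ± 0.10 was 0.34 and 0.45 later (contrast 0.95 ± 0.12, adjusted p = 0.00499). Malt1 went the other way, with a contrast of -0.81 ± 0.11 (adjusted p = 0.00499). Cd81, a tetraspanin gene, read 10.97 and 10.94 against 10.09 and 9.92 and differed by 0.35 and 0.32 later (contrast 0.62 ± 0.09, adjusted p = 0.0105). The contrast of Ccl6 was called without each of the 12 arrays in turn and on the deposited scale, and that of Dnah2 without each array as well. Those of Ccl9 and Cd81 were lost in 3 of 12 such fits, those of Col27a1 and Malt1 in 1, that of Chrac1 in 8, and those of Procr, Efnb2 and Sphk1 in at least 10.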

How the data were processed

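RNA from 12 dendritic cell samples was labelled with biotin by a 3' IVT kit for Affymetrix mouse arrays, per the labels' protocols. The authors deposited intensity values on a linear scale for 45101 probe sets. They were summarised with MAS5, per the submitters' processing notes; its scaling and version are not given in the sources used here. Of the probe sets, 34958 had 1 symbol in the platform annotation, 932 several and 9211 none (64 were controls). Only those with 1 symbol were named.

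Signals of the 12 arrays were quantile-normalized and tested as log2(signal + 16), a scale that understates changes of low genes and makes differences relative to the other probe sets. The probe set with the highest mean stood for a gene, and 12791 of 18193 genes passed a filter at the 40th percentile (10.6 as a signal). The means of 6 groups were fitted (limma 3.58.1, R 4.3.3, eBayes with trend; degrees of freedom 6 residual, 9.13 prior). Two-sided p-values were adjusted by Benjamini-Hochberg over all genes of a comparison. The fits were tested on simulated data. Named genes are Mapk14, the 12 highest and 12 lowest called genes whose arrays do not overlap, up to 3 called members of each list, and, for cell type lists without a call, the 2 markers of highest level. Clone-like names and segments of antigen receptors were left out. Names beyond this rule were chosen after their values were seen. The comparison, genes and lists were chosen with earlier results of these data known. Alternatives changed the scaling, pseudocount, filter, probe set choice, trend, arrays in the fit, replicate block and threshold.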

Additional observations from a re-analysis of the deposited data

Results flagged for a closer look

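The difference KO minus WT at 0 h departed from its mean at 2 and 4 h in 10 genes, by limma's interaction term at an adjusted p under 0.05. More positive at 0 h were Ccl6 (1.34 on the log2 scale), Dnah2 (1.00), Col27a1 (0.95), Ccl9 (0.79), Sphk1 (0.79), Efnb2 (0.74), Cd81 (0.62) and Procr (0.54). More negative at 0 h were Malt1 (-0.81) and Chrac1 (-0.80). Dnah2, an axonemal dynein gene, differed by -0.13 at 0 h, -1.55 at 2 h and -0.72 at 4 h, so its departure lies in the later arrays. Efnb2 and Chrac1 were not called at 0 h either (adjusted p = 0.0884 and 0.0985). The departure of Chrac1 was called in 4 of 12 fits without 1 array (adjusted p up to 0.146), and 2 of the 3 probe sets of Efnb2 had the opposite sign to the one used at 0 h. Sphk1, the sphingosine kinase gene, differed by 0.62 at 0 h and -0.47 at 4 h.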

How the results depend on the processing

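No called gene changed sign under any alternative run. Genes higher and lower numbered 249 and 173. On the deposited scale there were 10 and 21, with quantile normalization and a fit of the 4 arrays at 0 h alone 133 and 98, with a gene's probe sets averaged 160 higher, with eBayes without trend 76 and 40, in a fit of only the 4 arrays 131 and 98, and at a log2 change of at least 1 18 and 5. Leaving out 1 array gave 102 to 206 higher and 90 to 121 lower, where a lone array is assumed to vary like the other groups; fewest were higher without WT replicate B. Leaving out both replicates B, chosen after seeing the scale of KO replicate B, gave 53 and 48. The 10 genes whose difference departed from later times became 4 on the deposited scale, 6 with trimmed-mean scaling, 2 at a log2 change of at least 1, and 4 to 10 without 1 of the 12 arrays, fits chosen after seeing the data. On the deposited scale Ccl6 was the only 1 of these 10 genes still called, so the 4 there include other genes. The other alternatives kept each count within 1.5 times. With the replicate block 272 were higher, 190 lower and 7 departed from later times. Whether the letters pair the samples is not given in the sources used here. A minus B deviations of KO and WT at 0 h correlated at r = 0.06. Over 15 pairs of groups they correlated from -0.04 to 0.10, which cannot decide whether samples were paired. Of genes not called, leaving out 1 array at 0 h gave -0.043 to 0.353 for Mapk14, -0.190 to 0.086 for Klrd1, -0.626 to -0.070 for Lcn2 and -0.370 to 0.055 for S100a8, the upper values of Klrd1 and S100a8 and the lower of Mapk14 without WT replicate B. Without both B these 4 were -0.044, 0.125, 0.053 and 0.044, and Kit was -0.028 on the deposited scale; the cause was not tested. Of 112 called genes named, 21 stayed called on the deposited scale and 99 with trimmed-mean scaling.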
